A study of Drosophila melanogaster with 12 samples.

Results

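The nicotinic acetylcholine receptor subunit genes of Drosophila melanogaster were described in RNA from fly heads. They were taken by symbol, as the rows of the expression table named nAChRalpha1 to nAChRalpha7 and nAChRbeta1 to nAChRbeta3, which gave 10 genes out of 13515 rows. All 10 passed the filter on low values, a mean of 10 or more over the libraries, which 10845 genes passed in all.

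The tau flies had the genotype Elav-Gal4/+;UAS-tauR406W/+ (6 libraries), and the controls carried the driver alone, Elav-Gal4/+ (control, 6 libraries). Elav-Gal4 is a pan-neuronal driver, so the transgene, a mutant human tau linked to inherited frontotemporal dementia, is expressed in neurons, and the controls hold no UAS transgene. Each library was made from 18 heads of both sexes, pooled at day 10 of adulthood, and the submitters describe the pools as biologically independent. The RNA of the transgene itself was not analysed here.

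Nicotinic receptors are ion channels built of subunits arranged around a central pore, and they open when acetylcholine binds between neighbouring subunits. Acetylcholine is the main fast excitatory transmitter of the insect brain, so these receptors carry most fast excitation between fly neurons, and they are the targets of neonicotinoid and spinosyn insecticides. Alpha subunits carry a pair of neighbouring cysteines at the binding site, and the subunits named beta lack it.

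The table gives 1 normalised count per gene and library, a gene count divided by a library factor. Depth was estimated at 25.7 to 41.5 M read pairs in tau libraries and 20.2 to 33.2 M in control libraries. The thinnest value of any subunit, nAChRalpha2 in control E, stood for about 174 read pairs, a counting error of about 7.57%, and nAChRbeta3 never fell under about 776 read pairs. These figures are rough, since they rest on a single estimated value per read pair in each library, which low values followed only in part. Libraries tau B, control E and control F stood apart, since they listed 195, 433 and 484 genes at 0, against 1492 to 3013 in the other 9. Neuron markers were abundant in every library and none of 14 was called, with a summed level of 238976 to 312148 in tau libraries and 215028 to 354851 in control libraries. In bulk heads, fewer cells of a type and less RNA per cell cannot be told apart.

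The 10 genes lie on 4 chromosome arms and differ widely in size. By dm6 coordinates in Ensembl's BDGP6 annotation, nAChRalpha6 spans 92.9 kb of 2L (9793317 to 9886250, minus strand) with 16 exon blocks, a block being the joined exons of all transcripts. nAChRalpha3 spans 91.0 kb of X (8276200 to 8367169, minus strand), and nAChRalpha4 spans 80.8 kb of 3L (23206669 to 23287448, plus strand). nAChRalpha5 spans 54.2 kb of 2L (14040170 to 14094401, plus strand), and nAChRalpha7 spans 21.4 kb of X (19327075 to 19348447, minus strand). These long genes have 2 to 7 annotated transcripts each.

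The beta subunit genes are short, and so is nAChRalpha2, which spans 5.72 kb with 2.39 kb of exon. nAChRbeta1 covers 4429349 to 4435993 of 3L (plus strand), with 2.97 kb of exon. nAChRbeta3 is the shortest of all, at 1.97 kb of 2L (545129 to 547096, plus strand), with 1 transcript of 4 exons and 1.53 kb of exon.

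nAChRalpha1 (24393896 to 24457157, minus strand), nAChRalpha2 (24485428 to 24491147, plus strand) and nAChRbeta2 (24509228 to 24515106, minus strand) form a cluster on 3R. The cluster spans 121 kb, with 28.3 kb and 2 annotated genes between the first pair, and 18.1 kb and 0 genes between the second. None of its 3 subunits was called between tau and control.

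**Figure D1:**
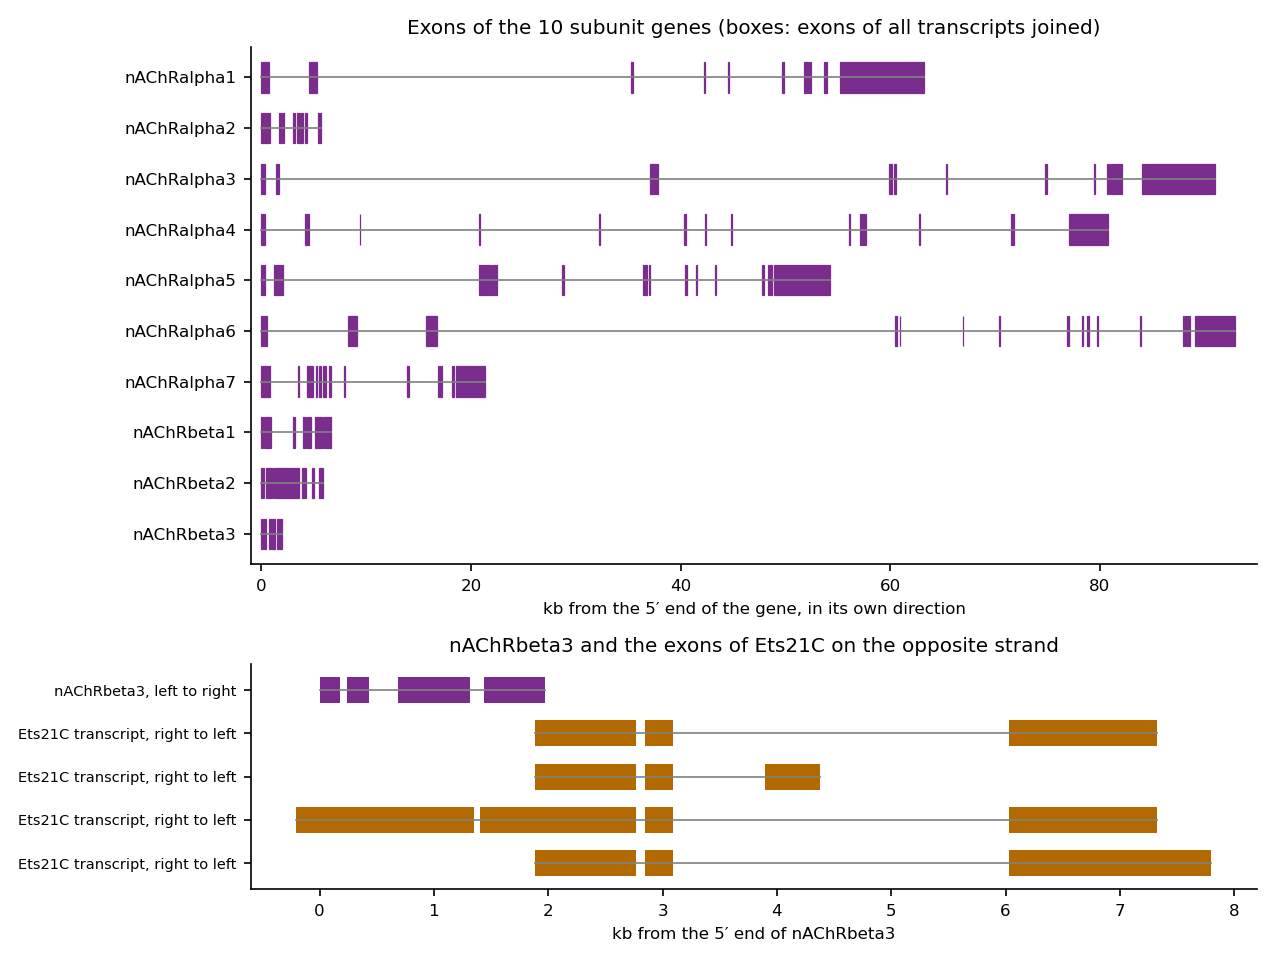
Exons of the 10 subunit genes, in kb from the 5′ end of each gene (upper panel, boxes are exons of all transcripts joined), and nAChRbeta3 with the 4 annotated transcripts of Ets21C on the opposite strand (lower panel, kb from the 5′ end of nAChRbeta3). nAChRbeta3 is the shortest gene at 1.97 kb, and 1 of the 4 Ets21C transcripts runs across its whole length.

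A comparison of tau with control asked whether RNA of the receptor subunits differs between heads with and without tau in neurons. Of the 10 subunit genes, nAChRbeta3 was lower in tau and the other 9 were not called in either direction. For comparison, 5.23% of all genes tested were called, 3.13% as lower and 2.1% as higher in tau, and 3.37% had groups of libraries that did not overlap. The median log2 fold change was 0.01 over the 10 subunits and 0.01 over all genes tested. A gene was called at a Benjamini-Hochberg adjusted p under 0.05 in a limma fit on log2(value + 1) over all genes.

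nAChRbeta3 (FBgn0031261) is the most divergent of the fly's nicotinic subunits in sequence. Its normalised counts were 636, 744, 2020, 2149, 1646 and 1534 in tau libraries A to F, and 4152, 2485, 7210, 4704, 5534 and 4434 in control libraries A to F. Every tau library was below every control library, with tau A and tau B the lowest of the tau libraries and control B the lowest of the controls. The means were 1455 ± 636 in tau and 4753 ± 1566 in control (SD, n = 6 each). The log2 fold change was -1.78 ± 0.30 (moderated SE; 95% interval -2.42 to -1.14), or 3.44-fold lower in tau (limma, adjusted p = 0.00259). The groups came close at their edges, since the lowest control library was 1.16 times the highest tau library. Without tau B, control E and control F the log2 fold change was -1.55 ± 0.36 (adjusted p = 0.0379, limma).

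nAChRbeta3 also varied more between pools of 1 genotype than the other subunits did. Its coefficient of variation was 43.7% over tau libraries and 32.9% over control libraries. Over the other 9 subunits it ran from 9.83% to 21.5% in tau and from 14.7% to 24.6% in control. The highest library held 3.38 times the lowest in tau and 2.90 times the lowest in control.

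**Figure D2:**
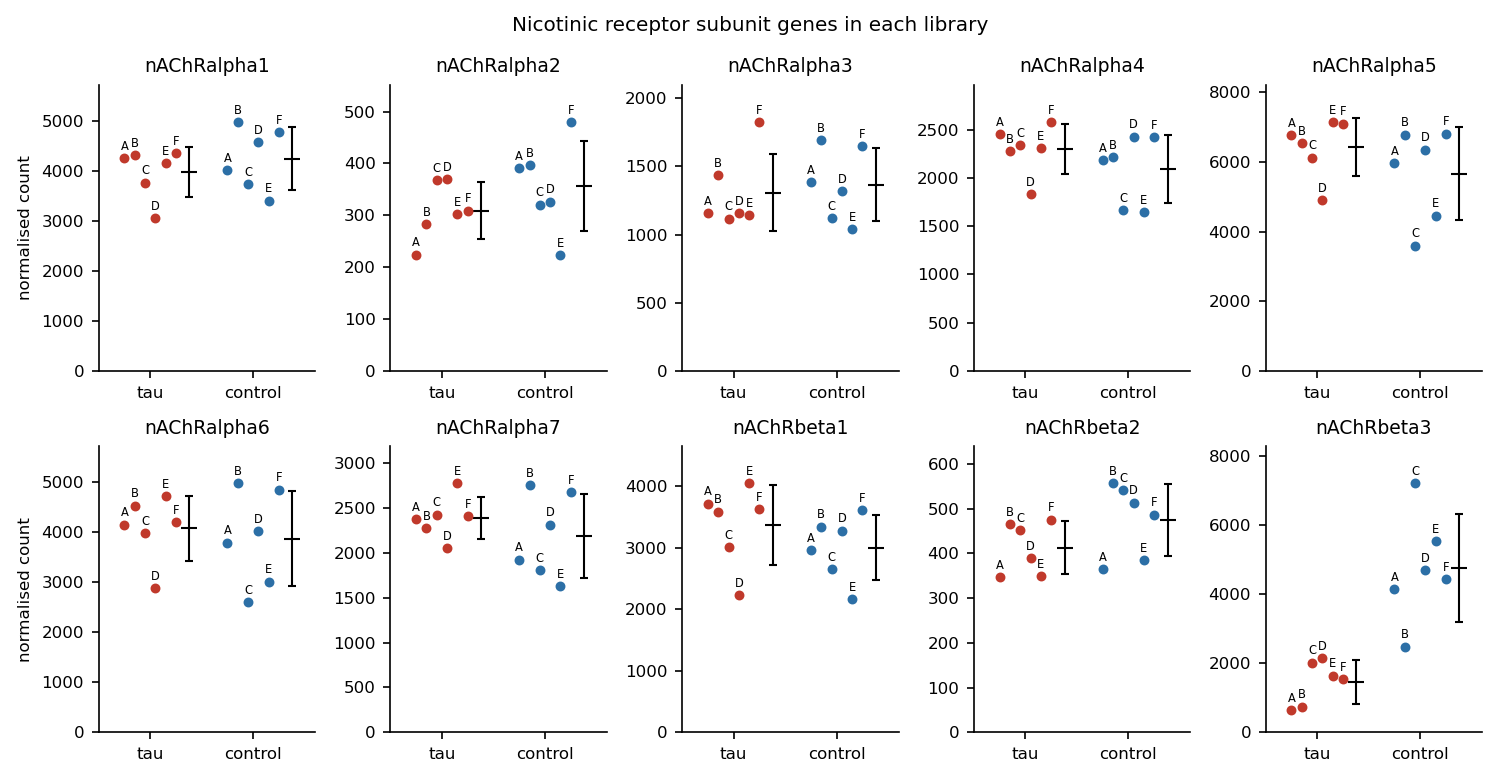
Normalised counts of the 10 subunit genes in each library (points, lettered A to F), with the mean and SD of each group (black), on a linear axis for each gene that starts at 0. nAChRbeta3 is the only one whose tau libraries (636 to 2149) all lie below its control libraries (2485 to 7210).

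nAChRbeta3 was not called under every setting. It was lower in tau and called under 24 of 26 other settings, and its log2 fold change kept its sign under all 26. When every library was recentred on its mean neuron marker level the difference was -1.78 and the adjusted p was 0.0558 (limma). With the mean level of haemocyte markers as a covariate, a term added after the values were seen, the difference was -0.52 ± 0.49 (adjusted p = 0.726, limma). Haemocytes are the fly's blood cells. Over all genes tested, 67 were called after this recentring and 32 with this covariate, against 567 in the fit reported here. Losing a call is therefore not particular to nAChRbeta3. The recentring left its difference at -1.78 with a wider SE (0.39, against 0.30). The haemocyte covariate brought the difference itself to -0.52. Counts of calls do not describe such a change in size, which was not measured over all genes.

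The haemocyte markers, like nAChRbeta3, were lower in tau. Of 9 listed, 6 were called lower in tau, against 3.13% of all genes tested. Hml, NimC1 and He were not called, and all 9 log2 fold changes were below 0. The called genes included the phagocytic receptors eater (log2 fold change -1.41, adjusted p = 0.000495) and Sr-CI (-1.10, adjusted p = 0.000495) in the same limma fit. Basement membrane collagens Col4a1 and vkg changed by -0.76 (adjusted p = 0.0115) and -0.60 (adjusted p = 0.00621), the matrix peroxidase Pxn by -0.56 (adjusted p = 0.0218) and the GATA factor srp by -0.33 (adjusted p = 0.0144). The summed level of the 9 markers was 26639 to 35573 in tau libraries and 41365 to 58195 in control libraries, with no overlap, and He was listed at 0 in 1 tau library. Without tau B, control E and control F, 3 of the 6 calls remained, those of eater, Sr-CI and vkg. Since the marker level separates the genotypes completely, its part in the difference of nAChRbeta3 cannot be told apart from that of the genotype.

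Fat body markers were also lower on average in tau. So were the yolk protein genes and fit, which are made in the fat of the head and mostly in females. The summed fat body markers ran from 263167 to 486378 in tau and from 398381 to 711030 in control, and 0 of 8 tested markers were called, 4 having an unadjusted p under 0.05 (limma). Of the 8 log2 fold changes, 6 were below 0. The smallest adjusted p was that of the lipase gene bmm, which was higher in tau (0.59, adjusted p = 0.0501, limma). Next came the lipid transfer protein gene Mtp (-0.63, adjusted p = 0.129, limma). Fbp1 and Fbp2 were listed at 0 in some libraries. The summed yolk protein genes and fit ran from 270304 to 1078038 in tau and from 457837 to 1972108 in control. Both sums overlapped between the groups. Of the 4 genes fit alone was called lower, with groups that did not overlap (-2.41, adjusted p = 0.00178, limma). Over all genes tested, 3.13% were called lower and 3.37% had groups that did not overlap. With the fat body markers as a covariate nAChRbeta3 changed by -1.95 (adjusted p = 0.00543), and with Yp1, Yp2 and Yp3 as a covariate by -2.04 (adjusted p = 0.0134, limma). Beyond these values, the part of fat and of the mix of sexes in the result was not tested.

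nAChRbeta3 shares its place in the genome with Ets21C, an ETS-family transcription factor gene of the opposite strand. All 1532 exonic bases of nAChRbeta3 lie within 1 of 4 annotated Ets21C transcripts, and the other 3 share 81 bases with it. The libraries kept strand, but whether the counting used it is not given in the sources used here, so reads of the 2 genes may not be fully told apart. Ets21C ran from 216 to 472 normalised counts in tau (median 306) and from 214 to 361 in control (median 280). The groups overlapped, and the difference was 0.23 ± 0.19 (adjusted p = 0.598, limma).

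The values of nAChRbeta3 and Ets21C were therefore also summed, a step taken after they were seen. The sum averaged 1793 ± 695 in tau and 5035 ± 1613 in control (SD, n = 6 each), with no overlap between the groups (log2 difference -1.53, exact two-sided permutation p = 0.00216, the smallest that 6 against 6 can give). Ets21C amounted to 27.5 ± 13.96% of the nAChRbeta3 level in tau and 6.26 ± 1.46% in control. With means of 1455 in tau and 4753 in control, nAChRbeta3 made up most of the sum. The sum therefore largely restates the difference of nAChRbeta3 and is no further support for it. Other neighbours on 2L were not called: lwr changed by 0.09 (adjusted p = 0.695), Spp by -0.46 (adjusted p = 0.0902), rempA by 0.18 (adjusted p = 0.692) and Tspo by -0.10 (adjusted p = 0.836), all by limma.

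The subunits nAChRalpha1 to nAChRalpha4 were measured in all 12 libraries. nAChRalpha1 (FBgn0000036), a neonicotinoid target in the fly, ran from 3051 to 4350 normalised counts in tau (median 4209) and from 3408 to 4983 in control (median 4296). The groups overlapped across most of their range, with tau D and control E at the bottom. Its log2 fold change was -0.09 ± 0.11 (95% interval -0.33 to 0.15, adjusted p = 0.762, limma).

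nAChRalpha2 (FBgn0000039), a low subunit in these heads, ran from 224 to 370 in tau (median 306) and from 223 to 480 in control (median 359). The control range enclosed the tau range. A log2 fold change of -0.18 ± 0.18 was fitted (95% interval -0.57 to 0.20, adjusted p = 0.671, limma), with the widest interval among the 9.

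nAChRalpha3 (FBgn0015519) ran from 1116 to 1827 in tau (median 1157) and from 1040 to 1693 in control (median 1350). Tau F alone exceeded the highest control library, and most tau libraries lay near the bottom of the range. Its log2 fold change was -0.07 ± 0.15 (adjusted p = 0.878, limma). Of its exonic bases, 251 are shared with CG1636 on the opposite strand.

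nAChRalpha4 (FBgn0266347), known in flies from the sleep mutant redeye, ran from 1828 to 2581 in tau (median 2324) and from 1648 to 2428 in control (median 2202). The groups overlapped, with control E lowest of all and tau F highest. Tau differed from control by 0.14 ± 0.12 on the log2 scale (adjusted p = 0.595, limma).

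nAChRalpha5, nAChRalpha6 and nAChRalpha7 are the subunits most like the vertebrate alpha7 receptor. nAChRalpha5 (FBgn0028875) had the highest group means of normalised counts, 6431 ± 840 in tau and 5662 ± 1331 in control (SD, n = 6 each). It ran from 4903 to 7152 in tau (median 6653) and from 3598 to 6811 in control (median 6160). Its groups overlapped, and its log2 fold change of 0.21 ± 0.15 was the largest positive one among the subunits (95% interval -0.11 to 0.53, adjusted p = 0.527, limma). nAChRalpha6 (FBgn0032151), the spinosad target, ran from 2879 to 4723 in tau (median 4177) and from 2603 to 4976 in control (median 3904), a control range that enclosed the tau range. Its log2 fold change was 0.09 ± 0.16 (adjusted p = 0.830, limma).

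nAChRalpha7 (FBgn0086778), which is needed in the giant fibre escape circuit, ran from 2051 to 2771 in tau (median 2386) and from 1629 to 2750 in control (median 2116). Most of the 2 ranges was shared, with control E at the bottom. On the log2 scale the difference was 0.15 ± 0.13 (95% interval -0.12 to 0.42, adjusted p = 0.613, limma).

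Of the beta subunits, nAChRbeta1 (FBgn0000038), a partner of alpha subunits in neonicotinoid-sensitive receptors, ran from 2226 to 4048 in tau (median 3606) and from 2161 to 3607 in control (median 3120). Tau A, tau E and tau F exceeded every control library, while tau D lay near the lowest control. The log2 fold change was 0.16 ± 0.15 (adjusted p = 0.644, limma). nAChRbeta2 (FBgn0004118) ran from 347 to 475 in tau (median 421) and from 365 to 556 in control (median 499.6). The groups overlapped, and the log2 fold change was -0.19 ± 0.14 (95% interval -0.49 to 0.10, adjusted p = 0.527, limma).

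Across these 9 subunits, 0 were called and 0 had an unadjusted p under 0.05 (limma), and their 95% intervals all lay between -0.57 and 0.53. Changes within that width could not be told from 0 in these libraries, which does not show that the levels were equal. Signs were mixed, 4 below 0 and 5 above, and each of the 9 changed sign under at least 1 other setting. After rescaling to equal library totals nAChRalpha1 and nAChRalpha3 were at 0.01 and 0.04, and nAChRalpha3 was also positive with the yolk protein (0.05) and fat body (0.03) covariates. With the haemocyte covariate nAChRalpha4 (-0.18), nAChRalpha5 (-0.40), nAChRalpha6 (-0.51), nAChRalpha7 (-0.19) and nAChRbeta1 (-0.39) were negative, and nAChRalpha2 (0.26) and nAChRbeta2 (0.015) positive. nAChRalpha6 was also negative with array weights (-0.016) and without control C (-0.012). No direction is therefore given for these 9 genes. None of the 234 refits of these 9 genes under other settings gave a call.

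**Figure D3:**
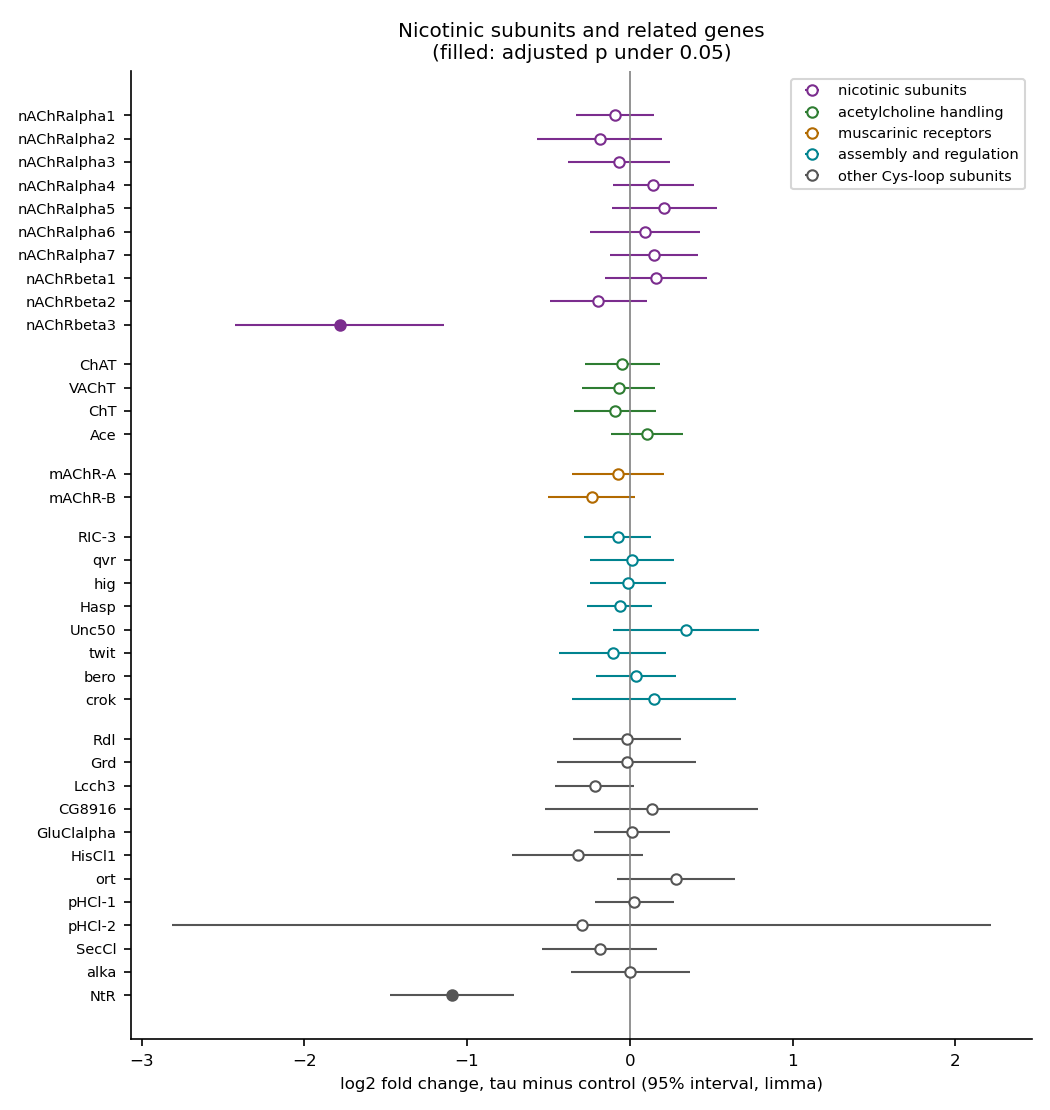
Log2 fold changes, tau minus control, with 95% limma intervals for the subunits and for related genes by group; filled points were called at an adjusted p under 0.05. nAChRbeta3 (-1.78) and NtR (-1.09) are the filled points, both left of 0.

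Relative to each of the other 9 subunits, the mean log2 ratio of nAChRbeta3 differed by -1.99 to -1.59 between tau and control. These ratios, taken after the values were seen, restate the difference of nAChRbeta3 and are no further support for it. The libraries of the 2 groups did not overlap for the ratio to nAChRalpha2, and overlapped for the other 8.

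To set subunits against each other, values were divided by the joined exon length of each gene. Per kb of exon, nAChRbeta3 was the second of the 10 in tau, at 949 ± 415, and the first in control, at 3102 ± 1022 (SD, n = 6 each). nAChRbeta1 was first in tau at 1133 ± 219 and second in control at 1009 ± 177. nAChRbeta3 exceeded nAChRbeta1 in all 6 control libraries, with ranges that did not overlap, while in tau nAChRbeta1 was the higher in 4 of 6 libraries and the ranges overlapped. nAChRbeta3 in turn exceeded nAChRalpha5, the next by mean, in 4 of 6 tau libraries, with overlapping ranges, so its place in tau differs between libraries.

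Below this pair the order by group mean was nearly the same in both genotypes. nAChRalpha5 came next, at 686 ± 89.6 per kb in tau and 604 ± 142 in control, followed by nAChRalpha6, at 524 ± 83.1 in tau and 498 ± 123 in control. nAChRalpha5 exceeded nAChRalpha6 in 6 of 6 libraries of each genotype, although their ranges overlapped. nAChRalpha7 (412 ± 40.5 in tau, 377 ± 81.0 in control), nAChRalpha4 (380 ± 42.3 in tau, 346 ± 58.5 in control) and nAChRalpha1 (361 ± 45.6 in tau, 385 ± 56.7 in control) followed, with ranges that overlapped between neighbours.

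A step separated these from the 3 lowest subunits per kb. nAChRalpha2 had 130 ± 23.0 in tau and 149 ± 36.6 in control, nAChRalpha3 124 ± 26.8 in tau and 130 ± 25.4 in control, and nAChRbeta2 103 ± 14.5 in tau and 118 ± 20.1 in control. The range of nAChRalpha2 did not reach that of the next higher subunit in either genotype, and among the lowest 3 the ranges overlapped.

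nAChRbeta3 made up 19.7 ± 8.81% of the summed per-kb level of the 10 subunits in tau and 45.6 ± 12.3% in control. Shares of 1 sum move against each other, so those of the remaining subunits were higher in tau. nAChRbeta1 took 23.6 ± 4.18% in tau and 15.1 ± 3.01% in control, and nAChRalpha5 took 14.3 ± 1.58% in tau and 9.13 ± 2.53% in control.

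**Figure D4:**
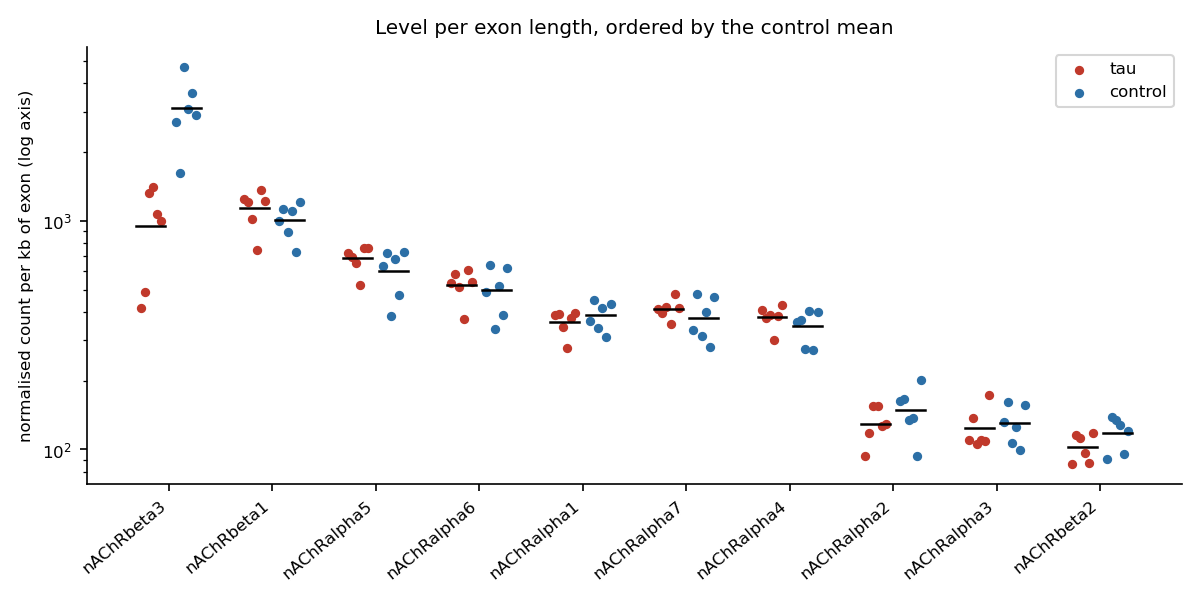
Normalised count per kb of exon (log axis) of each subunit in each library (points) with the group mean (line), ordered by the control mean. nAChRbeta3 leads in control at 3102 per kb and is second to nAChRbeta1 in tau at 949 per kb.

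The other 9 subunits tended to be high or low in the same libraries. Tau D was the lowest tau library for 6 of the 9 and control E the lowest control library for 6 of the 9. Control B was the highest control for 5, and tau E and tau F were each the highest tau library for 4. Their mean log2 level ran from 10.62 (tau D) to 11.03 (tau F) in tau and from 10.47 (control E) to 11.13 (control F) in control.

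In the controls nAChRbeta3 went the other way. It was highest in control C and control E, where the mean of the other 9 was 10.61 and 10.47, the lowest of the controls. It was lowest in control B, where that mean was 11.11. In tau it was highest in tau D (2149), where that mean was lowest (10.62). It was lowest in tau A (636), where that mean was low as well (10.84). The mean log2 level of the neuron markers was also lowest in control C (13.53) and control E (13.70), against 14.26 in control B. The libraries share these scale factors, so this is a description of 6 pools of each genotype.

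The genes with a pattern most like that of nAChRbeta3 were found by the SD over the 12 libraries of the log2 ratio of each gene to nAChRbeta3, a smaller SD meaning a closer pattern. The median over 10844 genes was 1.18. The closest were Nepl6 (0.28), Nepl18 (0.29) and Cyp9c1 (0.31). Nepl6 and Nepl18 encode neprilysin-like peptidases and Cyp9c1 a cytochrome P450, and none of them lies near nAChRbeta3. The other 9 subunits had SDs of 1.04 to 1.32.

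Nepl6 (FBgn0259716) ran from 778 to 2214 in tau (median 1721) and from 1881 to 8613 in control (median 5549). Control B alone fell within the tau range. The log2 fold change was -1.77 ± 0.33, given without a test because the choice by likeness to nAChRbeta3 fixes it in part. Likewise Nepl18 averaged 2631 ± 876 in tau and 7563 ± 2074 in control, and Cyp9c1 averaged 959 ± 379 in tau and 2650 ± 1026 in control (SD, n = 6 each).

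**Figure D5:**
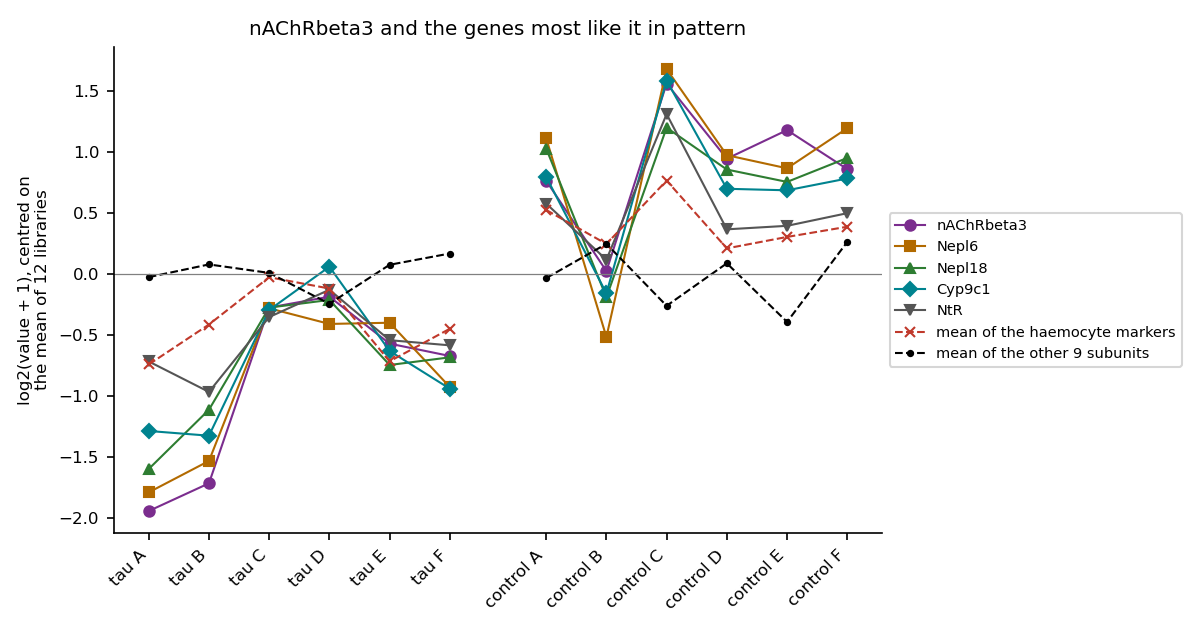
Log2(value + 1) of nAChRbeta3, Nepl6, Nepl18, Cyp9c1 and NtR, and the means of the haemocyte markers and of the other 9 subunits (dashed), each centred on its mean over the 12 libraries. The solid lines are low in tau A and tau B and high in control C, while the mean of the other 9 subunits is low in control C and control E.

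Genes that make, load, recover and break down acetylcholine were not called, 0 of 4 in either direction and 0 at an unadjusted p under 0.05 (limma), with a median log2 fold change of -0.06. Acetylcholinesterase, Ace, averaged 12659 ± 862 in tau and 11871 ± 1752 in control (0.10 ± 0.10, adjusted p = 0.674, limma). The choline transporter gene ChT averaged 2062 ± 288 in tau and 2199 ± 352 in control (-0.09 ± 0.12, adjusted p = 0.777, limma). ChAT, the synthesising enzyme, and VAChT, the vesicular transporter, share a locus and a first exon, and their log2 fold changes were -0.05 and -0.07.

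Muscarinic receptors, the G protein-coupled receptors of acetylcholine, were not called either, 0 of 2 tested and 0 at an unadjusted p under 0.05 (limma). mAChR-B averaged 736 ± 66.0 in tau and 876 ± 163 in control (-0.23 ± 0.13, adjusted p = 0.362, limma). mAChR-A averaged 2448 ± 365 in tau and 2592 ± 492 in control (-0.07, adjusted p = 0.849, limma). mAChR-C was too low to test. It was listed at 0 in every tau library except tau B, one of the libraries that stand apart, which had 31.4, and ran from 3.61 to 15.5 in control libraries.

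Of 8 genes for receptor assembly, clustering or regulation, 0 were called and 0 had an unadjusted p under 0.05 (limma), with a median of 0.00. RIC-3, a chaperone of nicotinic receptor assembly, averaged 2867 ± 251 in tau and 3033 ± 402 in control (-0.07 ± 0.10, adjusted p = 0.774, limma). Unc50, whose Caenorhabditis elegans counterpart is needed to traffic nicotinic receptors, averaged 242 ± 62.2 in tau and 189 ± 46.9 in control (0.35 ± 0.21, adjusted p = 0.434, limma).

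Of 12 tested subunits of other Cys-loop receptors, the wider family of GABA-, glutamate-, histamine- and pH-gated channels, 1 was called, with a median log2 fold change of -0.02 over the 12. Over all genes tested, 5.23% were called and 3.37% had groups that did not overlap, so 1 gene of 12 is near those shares. The called gene was NtR (FBgn0029147), a predicted member of the family named for its likeness to nicotinic receptors. It had 550, 462, 707, 826, 620 and 602 normalised counts in tau libraries A to F, and 1348, 980, 2242, 1165, 1188 and 1277 in control libraries A to F. Every tau library lay below every control library, and control C stood above the other controls.

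The log2 fold change of NtR was -1.09 ± 0.18 (95% interval -1.47 to -0.71, adjusted p = 0.00183, limma), and -0.94 without control C (adjusted p = 0.00106). Without tau B, control E and control F it was -1.06 ± 0.21 (adjusted p = 0.0217, limma). In likeness to nAChRbeta3 NtR was at place 54, with an SD of 0.54. That SD runs over all 12 libraries and both genes were lower in tau, so the difference between the groups fixes this place in part. Like nAChRbeta3 it was not called after recentring on neuron markers (-1.09, adjusted p = 0.0947) or with haemocyte markers as a covariate (-0.28, adjusted p = 0.737, limma). Most called genes lost their call there, since 67 and 32 genes were called under these settings, against 567. Losing a call is therefore not particular to these 2 genes, but these counts do not describe their smaller differences with the haemocyte covariate.

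Glutamate receptors of the brain, 8 ionotropic ones and the metabotropic mGluR, had 0 of 9 called and 1 at an unadjusted p under 0.05 (limma), with a median of -0.06. KaiR1D averaged 470 ± 71.0 in tau and 631 ± 139 in control (-0.41 ± 0.16, adjusted p = 0.165, limma), and reached an adjusted p of 0.0436 only without control E. The kainate-type gene clumsy changed by 0.37 (adjusted p = 0.369, limma).

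Counts for markers of other cell types of the head stand beside the 5.23% of all genes tested that were called. Of 14 neuron markers 0 were called and 0 had an unadjusted p under 0.05 (limma), with a median of 0.00, the smallest adjusted p being those of nSyb (-0.24, adjusted p = 0.309) and cpx (-0.22, adjusted p = 0.393). Of 16 photoreceptor markers, the arrestins Arr1 (-0.47, adjusted p = 0.0465) and Arr2 (-0.45, adjusted p = 0.0218) were called lower, calls that held in 6 (Arr1) and 14 (Arr2) of 26 other settings. Of 10 glia markers, the septate junction gene Gli was called higher (0.40, adjusted p = 0.015) and the glutamate transporter gene Eaat1 lower (-0.53, adjusted p = 0.00893), and of 8 muscle markers tested the actin gene Act57B was called higher (0.38, adjusted p = 0.02, limma). Without tau B, control E and control F, Eaat1 alone of these 5 genes was called.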

How the data were processed

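Head RNA of 6 tau and 6 control pools was sequenced by the submitters from stranded, rRNA-depleted libraries, per the labels' protocols. Per the submitters' processing notes, the tools were FastQC, Trimmomatic 0.36 (trimming), Salmon 0.13.1 (quantification) and DESeq2 1.24 (normalisation), with build dm6. The table deposited by the authors holds 1 signal value per gene and library, their gene counts divided by normalisation factors, with sequencing lanes joined for each library, per the file headers. The strand setting of the counting and the transcript annotation were not stated in the labels. Between 42.5% and 79.2% of low values lay within 0.05 of a whole number of read pairs, so read counts could not be recovered, and count models were not fitted.

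Values were analysed as log2(value + 1), a scale that understates changes of low genes, for 10845 genes with a mean of at least 10, with limma 3.58.1 in R 4.3.3 (variance trend, two-sided, Benjamini-Hochberg over all genes). The fit was tested on simulated data. Single values were compared by exact permutation over the 12 libraries. Per-kb levels use joined exons of the Ensembl annotation. Named genes were the 10 subunits, the called members of each other list or else its 2 smallest adjusted p, the 3 genes closest in pattern to each called subunit, and neighbours of nAChRbeta3. Members and lists were chosen with earlier results of these data known, and the yolk protein list, the covariates and the ratios were added after values were seen. Alternatives changed the pseudocount, filter, scaling, variance model, block, covariates or libraries.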

Additional observations from a re-analysis of the deposited data

Results flagged for a closer look

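None of the 10 subunits had a library that stood apart from the other 5 of its group by Dixon's criterion. Of 70 pairs of a named gene and a group, 4 did, all of them in control C, where chance gives about 1 in 20 (3.5 of 70). NtR stood at 2242 normalised counts in control C, against 980 to 1348 in the other controls. Gli stood at 1832, against 1342 to 1453, and Pxn at 6303, against 3835 to 4534. The female-biased fat body gene fit stood at 10692, against 1820 to 3909. nAChRbeta3 was also highest in control C (7210), next to control E (5534).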

How the results depend on the processing

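nAChRbeta3 kept its direction in 26 of 26 other settings and its call in 24. It was not called when libraries were recentred on neuron markers (-1.78, adjusted p = 0.0558) or with haemocyte markers as a covariate (-0.52, adjusted p = 0.726), so the count of subunits called was 0 there in place of 1. Leaving out each library in turn gave log2 fold changes of -1.95 to -1.57, and leaving out tau B, control E and control F together gave -1.55 (adjusted p = 0.0379, limma).

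The number of all genes called, 567, was 369 with no variance trend, 876 with array weights, 67 after recentring on neuron markers, 308 without tau B, control E and control F (280 of them shared), and 376 (without control A) to 674 (without control B) leaving out each library. With covariates it was 146 (Yp1, Yp2 and Yp3), 339 (fat body) and 32 (haemocyte). Members called in the other 12 lists, 13 of 104, were 2 after recentring on neuron markers, 6 without the 3 libraries, 5 with the yolk protein covariate and 1 with the haemocyte covariate. That 1 was bmm, which is not among the 13. Of the 13, 6 are haemocyte markers and so part of that covariate, which fixes the loss of their calls in part. Beyond that, the cause of these changes was not tested. Rescaling to equal totals moved the median of all genes from 0.01 to 0.11. It gave 786 calls, 66.8% of them higher in tau against 40.2%, and nAChRbeta3 at -1.68.

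Ordered by control level, 8 of the 10 subunits kept their place with the longest transcript as length and 3 with no division by length. Over all genes tested, the replicate letters gave no clear sign of pairing. Same-letter deviations correlated at -0.23 to 0.14, and 2 of 6 tau libraries correlated best with their own letter. That does not settle pairing for a single gene. A replicate block gave 699 calls, 511 of them shared. Every letter is in both groups, so the block leaves a difference as it is and changes its SE. For nAChRbeta3 it gave -1.78 ± 0.16 (adjusted p = 0.000117, limma), against ± 0.30 without the block.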
